A study of Homo sapiens with 6 samples.

Results

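Transcripts of the cytosolic and mitochondrial heat shock proteins were examined in 2 human ovarian cancer cell lines, in clones labelled as carrying shRNA against Hic-5 or as overexpressing it. Hic-5, the product of TGFB1I1, is a focal adhesion adaptor protein. The 39 genes came from a list that was chosen with earlier results of these data known, so counts over it are descriptions, not tests. The list covers the HSP70, HSP110 and HSP90 families with their HSP40, BAG and other co-chaperones. It also covers the small heat shock proteins, the chaperonins and the heat shock transcription factors HSF1 and HSF2. Of the 39 genes, 38 had a probe under their symbol on the array, and HSPA1B had none. The 38 genes had 68 of the 41000 probes and were 38 of the 29123 gene names. Where a gene had several probes, the one with the highest average intensity over both dyes and all 6 arrays was used, and the others are given beside it.

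In SKOV3 cells, an ovarian adenocarcinoma line, RNA of 2 stable clones labelled sh-S1 and sh-S2, selected after infection with shRNA against Hic-5 in the lentiviral pLKO.1-puro vector, was compared with RNA of 1 puromycin-selected Ctrl clone that carried a scramble sequence in the same vector. In A2780s cells, an ovarian cancer line of epithelial morphology, RNA of 1 stable clone labelled pCMV-Hic-5, which expresses Hic-5 from a CMV promoter, was compared with RNA of its mock-transfected Ctrl clone. Each pair of RNAs was hybridised on a pair of Agilent two-colour arrays with the dyes exchanged, which gave 4 SKOV3 arrays and 2 A2780s arrays. All ratios below are log2 ratios of the modified clone over its Ctrl. Both arrays of a pair were averaged, so n was 2 clones in SKOV3, with a common Ctrl RNA, and 1 pair of RNAs in A2780s, for which no test could be made. Each modified RNA came from a single clone and the Ctrl RNA was not replicated. An SKOV3 p-value rests on the spread between the 2 clones, which limma draws towards the spread pooled over all probes tested. For HSF2, the SD between the clones was 0.011 and the SE 0.092. The p-value leaves out the spread of Ctrl.

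On these arrays, the targeted gene did not follow its label in SKOV3, although the authors report selecting the clones by their Hic-5 RNA and protein. The TGFB1I1 ratio was -0.16 and 0.12 on the arrays of sh-S1 and -0.12 and 0.28 on those of sh-S2 (mean 0.03, SE 0.095, limma adjusted p = 0.855), whereas in A2780s it was 4.05 and 2.60. The SKOV3 RNAs are therefore called by their labels throughout. Of 6 epithelial and ovarian markers, 5 were lower in sh-S1 and sh-S2 than in Ctrl (PAX8 -3.58, KRT18 -3.53, KRT19 -2.55, ERBB2 -2.28, KRT8 -2.14, adjusted p at most 3.47e-05) and WT1 was at -0.02. Their part in the results below was not tested, and the mesenchymal markers VIM, CDH2 and FN1 are not reported here. Of the leukocyte, endothelial and fibroblast markers, CD14, COL1A1 and DCN were tested in SKOV3 and had mean ratios of 0.06, -0.14 and 0.07 with adjusted p of 0.730, 0.339 and 0.643. Cy5 was weak on the SKOV3 arrays, with a median net signal of 9.52 to 25.5 against 373 to 530 in Cy3, and the ratios of 2 arrays correlated less across probes when their dyes were exchanged (r = 0.53 to 0.62) than when they were not (r = 0.89 to 0.90). The ratios of the 2 A2780s arrays, which shared their own slide and scan, correlated at r = 0.49 across probes.

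Heat shock proteins are molecular chaperones that hold unfolded polypeptides and help them to fold, or pass them on for degradation. HSP70 proteins bind and release their clients in cycles driven by ATP, for which HSP40 (DNAJ) proteins deliver the client and BAG and HSP110 proteins exchange the nucleotide, while HSP90 takes over clients such as kinases and hormone receptors through adaptors. When proteins unfold, the transcription factor HSF1 is released from chaperones, forms trimers and binds heat shock elements, arrays of short inverted repeats, in the promoters of inducible genes such as HSPA1A, HSPA6, DNAJB1 and BAG3. In cancer cells many of these proteins are made at high levels without heat stress.

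Promoters of the genes on which the results turn are shown. Most of these genes have one with a match to the binding sequence of the heat shock factors. RefSeq promoters (GRCh38.p14, 250 bases before to 50 bases after the gene start, 35116 in all) were found for 35 of the 39 genes, with 49 promoters. A heat shock element was counted where 2 facing units occurred as GAANNTTC or TTCNNGAA, each of which reads the same on both strands. Such an element was present in 4737 of all promoters (13.5%) and in 23 of the 49 promoters of the heat shock genes. By gene, it was present in 22 of the 35 (62.9%) and in 16.2% of all genes. An element of 3 alternating units at the same spacing, which contains both of the shorter ones, was present in 172 of all promoters (0.49%) and in 8 of the 49. Of the 9 genes that passed a threshold below, 7 had an element in at least 1 promoter, beside the 22 of 35 above. The windows of CCT3 and BAG3 held neither spelling. HSP90AA1, DNAJB1 and DNAJB4 each also had a promoter without an element. For them, the promoter with the most elements is printed. The 200 bases before the start are given 5′ to 3′ on the strand of the gene for those 7 genes and for HSPA1B, the near copy of HSPA1A, with the GAA and TTC units of each element in capitals:
HSPA1A, chr6:31815343-31815542, plus strand: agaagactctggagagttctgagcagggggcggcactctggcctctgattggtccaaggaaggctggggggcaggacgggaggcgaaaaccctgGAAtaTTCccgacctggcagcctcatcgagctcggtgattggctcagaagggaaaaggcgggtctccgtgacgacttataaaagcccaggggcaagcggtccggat
HSPA1B, chr6:31827538-31827737, plus strand: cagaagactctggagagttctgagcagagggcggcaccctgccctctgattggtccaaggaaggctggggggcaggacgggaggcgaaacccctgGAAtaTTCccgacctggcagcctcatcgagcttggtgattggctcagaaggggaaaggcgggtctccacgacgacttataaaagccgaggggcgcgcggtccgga
HSPB1, chr7:76302473-76302672, plus strand: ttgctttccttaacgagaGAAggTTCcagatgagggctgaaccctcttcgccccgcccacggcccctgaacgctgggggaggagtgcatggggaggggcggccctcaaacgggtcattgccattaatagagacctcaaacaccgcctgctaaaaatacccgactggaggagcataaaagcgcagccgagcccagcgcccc
HSP90AA1, chr14:102087045-102087244, minus strand: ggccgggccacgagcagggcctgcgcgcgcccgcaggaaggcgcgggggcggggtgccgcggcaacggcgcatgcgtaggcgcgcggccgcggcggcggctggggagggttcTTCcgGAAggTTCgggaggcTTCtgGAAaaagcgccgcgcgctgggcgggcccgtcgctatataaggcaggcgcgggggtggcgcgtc
HSPA6, chr1:161524340-161524539, plus strand: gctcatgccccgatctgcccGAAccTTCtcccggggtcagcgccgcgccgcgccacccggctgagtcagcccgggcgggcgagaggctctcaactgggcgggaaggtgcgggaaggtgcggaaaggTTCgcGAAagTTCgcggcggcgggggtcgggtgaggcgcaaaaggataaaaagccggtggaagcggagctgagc
DNAJB1, chr19:14518398-14518597, minus strand: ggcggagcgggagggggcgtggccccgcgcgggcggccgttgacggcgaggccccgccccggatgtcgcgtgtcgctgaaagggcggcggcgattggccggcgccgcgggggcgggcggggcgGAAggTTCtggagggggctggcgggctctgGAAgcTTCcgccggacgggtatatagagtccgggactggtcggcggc
DNAJB4, chr1:78004739-78004938, plus strand: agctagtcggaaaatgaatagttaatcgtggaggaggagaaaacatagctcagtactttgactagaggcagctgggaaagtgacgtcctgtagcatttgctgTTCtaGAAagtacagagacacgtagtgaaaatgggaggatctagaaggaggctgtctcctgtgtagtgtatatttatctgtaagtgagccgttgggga
BAG2, chr6:57172126-57172325, plus strand: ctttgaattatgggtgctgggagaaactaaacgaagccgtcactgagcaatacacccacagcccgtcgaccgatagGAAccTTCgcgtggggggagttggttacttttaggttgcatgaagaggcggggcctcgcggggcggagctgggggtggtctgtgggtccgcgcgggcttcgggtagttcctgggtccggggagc

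The elements of HSPA1A and HSPA1B lay at -106 and -105 from the start. HSP90AA1 and HSPA6 held 3 elements each, of which an overlapping pair formed an element of 3 units, at -88 in HSP90AA1 and at -74 in HSPA6. Among the genes not printed, CHORDC1, an HSP90 co-chaperone, held 6 elements, the most of any of the 49 promoters. A match describes these letters only and was not tested for binding.

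**Figure D1:**
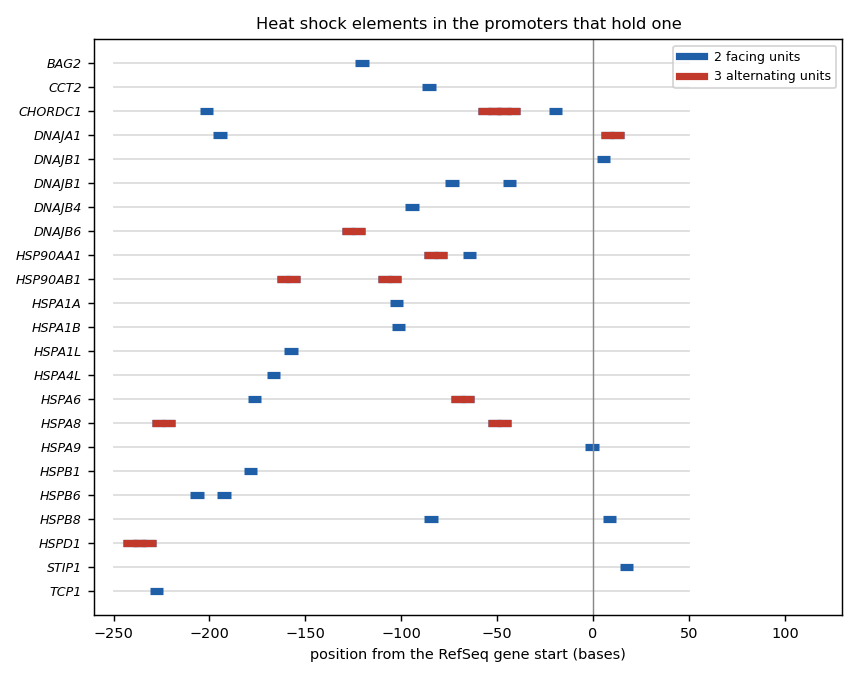
Positions of heat shock elements in the 23 promoters of heat shock genes that hold one, from 250 bases before to 50 bases after the RefSeq gene start (x axis, bases). Blue bars are elements of 2 facing units and red bars elements of 3 alternating units. A gene with several promoters can appear more than once, as DNAJB1 does. Most elements lie before the start.

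In SKOV3, 3 heat shock transcripts fell and 1 rose in the sh-S1 and sh-S2 RNAs. HSPA1A, the main stress-inducible HSP70, fell 8.93-fold on its brightest probe, HSPB1, the small heat shock protein HSP27, fell 3.45-fold, and HSP90AA1, the inducible cytosolic HSP90, fell 2.30-fold. CCT3, a subunit of the chaperonin TRiC that folds actin and tubulin, rose 2.01-fold. A gene was called where the adjusted p over all probes tested was at most 0.05 and the change at least 2-fold. Of the 38 genes, 32 were tested. HSPA1L, HSPA4L and HSPB8 were not well above background on enough of the arrays, in the clones or in Ctrl. The brightest probes of HSPA8, CCT2 and CCT5 lacked a value on at least 2 of the 4 arrays. There the scanner software had flagged their spots as outliers. The 3 genes called lower were 9.38% of the 32, against 4.16% of all 24980 probes tested, and the gene called higher was 3.12%, against 2.97%. The median ratio of the 32 was -0.13, against 0.00 for all probes. At the adjusted p alone, 19 of the 32 passed, 8 of them higher and 11 lower, as did 31.7% of all probes, so 15 genes passed on p and fell short of the fold.

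**Figure D2:**
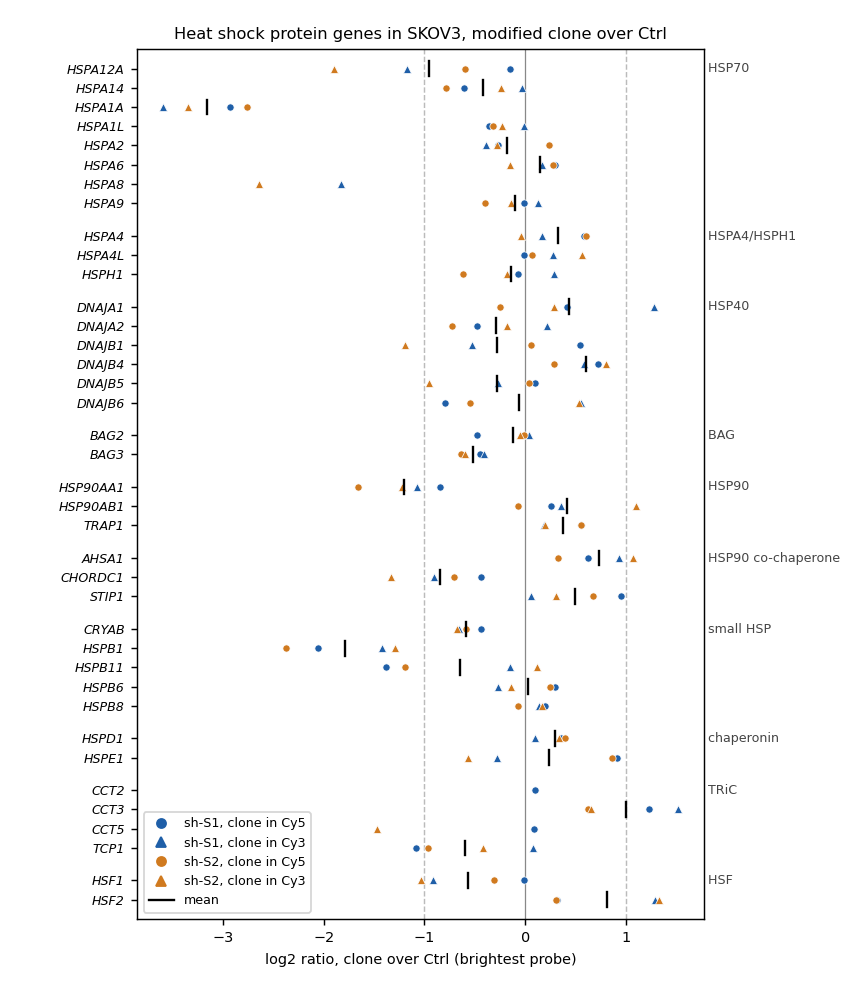
log2 ratio of each SKOV3 clone over Ctrl (x axis) for the brightest probe of the 38 heat shock genes, grouped by family. Blue points are sh-S1, orange points sh-S2, circles clones labelled with Cy5 and triangles clones labelled with Cy3. Black lines are the mean of the 2 clones for tested genes and dashed lines mark 2-fold. HSPA1A, HSPB1 and HSP90AA1 lie to the left on all 4 arrays.

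Among the HSP70 genes, HSPA1A stood apart. The ratio of its brightest probe was -2.93 and -3.60 for sh-S1 and -2.76 and -3.35 for sh-S2, here and below with the Cy5-labelled clone first and the Cy3-labelled clone second (mean -3.16, SD 0.15, SE 0.101, adjusted p = 5.59e-06). No array was above -2.76, and the clones did not differ beyond the spread of their own arrays. In log2 levels, the SKOV3 Ctrl RNA lay between 12.9 and 13.3 on its 4 arrays, sh-S1 at 9.75 and 10.4, and sh-S2 at 9.53 and 10.6.

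The other probes under the name HSPA1A gave smaller ratios, and all 3 are shown because they do not list the same transcripts. HSPA1A and HSPA1B encode almost the same protein, and only the brightest probe is annotated to HSPA1A alone, whereas the others list transcripts of both genes. In hg19 coordinates, as the files give them, and 5′ to 3′ on the plus strand, the first 30 of the 60 bases of the HSPA1A probe and the whole of the shared probes read:
HSPA1A alone, chr6:31785491-31785550: gagcttcaagactttgcatttcctagtatt
HSPA1A and HSPA1B, chr6:31784945-31785004: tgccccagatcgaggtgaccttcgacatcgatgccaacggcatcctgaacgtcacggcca
HSPA1A and HSPA1B, chr6:31784394-31784453: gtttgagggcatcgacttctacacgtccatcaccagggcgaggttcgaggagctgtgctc

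The first shared probe had ratios of -0.32 and -1.07 for sh-S1 and -0.80 and -0.63 for sh-S2 (mean -0.70, SE 0.092, adjusted p = 0.0017). The second had ratios of -0.26, -0.64, -0.34 and -0.57 (mean -0.45, SE 0.092, adjusted p = 0.0105). Both were lower on all 4 arrays and passed on p, and neither reached 2-fold. Over the SKOV3 channels, the log2 level of the first shared probe lay between 7.52 and 9.47 and that of the second between 7.29 and 8.72. The offset understates the changes of dim probes, and its part in the smaller ratios, like that of HSPA1B transcripts, was not tested. Upstream of the gene start the genes differ by scattered bases, and the longest run they share within the printed stretches is 47 bases.

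None of the other HSP70 genes that were tested reached 2-fold. The lowest of them was HSPA12A, a distant relative of HSP70, at -0.15, -1.17, -0.59 and -1.90 (mean -0.95, SE 0.147, adjusted p = 0.00333), so its value depended on the dye as well as the clone. The highest was HSPA6, the strictly inducible HSP70B′, with a mean of 0.15 (adjusted p = 0.324). Its probe also lists HSPA7, and it was well above background on 3 of the 4 arrays in the clones and 2 of 4 in Ctrl. HSPA8, the constitutive HSC70, was not tested on its brightest probe, which gave -1.83 for sh-S1 and -2.64 for sh-S2 with the clone in Cy3 and had no value with the clone in Cy5. It was followed, after its values were seen, on a second probe with the same 60 bases. That probe gave 0.31 and -1.32 for sh-S1 and -0.41 and -2.38 for sh-S2 (mean -0.95, SE 0.197, adjusted p = 0.0114). Its sign changed with the dye in sh-S1, and the other HSPA8 probes had means of -0.74 and -0.22. HSPA14 was at -0.61, -0.03, -0.78 and -0.24 (mean -0.42, SE 0.099, limma adjusted p = 0.0198), so it passed on p. HSPA9, the mitochondrial HSP70, had a mean of -0.10 and HSPA2 of -0.18, and neither passed on p.

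HSP110 proteins exchange nucleotide on HSP70. HSPA4 was at 0.33 (SE 0.094, adjusted p = 0.0386) and HSPH1 at -0.14 (adjusted p = 0.495), and the dim HSPA4L was not tested. The 6 HSP40 genes, which bring clients to HSP70, ranged from -0.29 for DNAJA2 to 0.60 for DNAJB4. DNAJB4 was higher on every array, at 0.73, 0.58, 0.29 and 0.80 (SE 0.095, adjusted p = 0.00369), and its second probe had a mean of 0.51. DNAJB1, the inducible HSP40, was at 0.54 and -0.52 for sh-S1 and 0.06 and -1.19 for sh-S2 (mean -0.28, SE 0.146, adjusted p = 0.21), so the sign again depended on the dye. The BAG proteins link HSP70 to degradation. BAG3 was at -0.45, -0.41, -0.63 and -0.60 (mean -0.52, SE 0.099, adjusted p = 0.00797), lower on all 4 arrays but short of 2-fold, and BAG2 was at -0.12 (adjusted p = 0.417).

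HSP90AA1 fell on each of its 4 probes. The brightest gave -0.84 and -1.08 for sh-S1 and -1.66 and -1.23 for sh-S2 (mean -1.20, SD 0.34, SE 0.133, adjusted p = 0.000817), and the others had means of -1.65, -1.83 and -1.92 with adjusted p at most 0.000227. The value for sh-S1 alone on the brightest probe was -0.96, just short of 2-fold. Its partner HSP90AB1, the constitutive cytosolic HSP90, was at 0.25, 0.36, -0.07 and 1.10 (mean 0.41, SE 0.101, adjusted p = 0.0219). The 2 cytosolic HSP90 genes therefore lay on opposite sides of 0, although another HSP90AB1 probe had a mean of -0.33 (adjusted p = 0.285). TRAP1, the mitochondrial HSP90, was at 0.37 (SE 0.092, adjusted p = 0.0225). All 3 co-chaperones of HSP90 passed on p without reaching 2-fold. AHSA1, which stimulates the HSP90 ATPase, was the highest at 0.62, 0.93, 0.32 and 1.07 (mean 0.74, SE 0.094, adjusted p = 0.00149). CHORDC1 was the lowest at -0.44, -0.91, -0.71 and -1.33 (mean -0.85, SE 0.114, adjusted p = 0.00193), and its probe also lists a pseudogene of CHORDC1.

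Small heat shock proteins hold unfolded clients without ATP, and HSPB1 also binds the actin cytoskeleton. HSPB1 gave -2.06 and -1.43 for sh-S1 and -2.38 and -1.29 for sh-S2 (mean -1.79, SD 0.07, SE 0.094, adjusted p = 3.59e-05). Its other probes had means of -1.60 and -1.69, and no array of any of the 3 was above -1.29. The log2 level was 13.6 to 14.5 in Ctrl, 12.3 and 12.7 in sh-S1, and 12.1 and 12.3 in sh-S2. These are repeat arrays of 1 RNA each, not replicates. The share of all probes set apart in this way was not computed. CRYAB, alpha B-crystallin, was at -0.44, -0.66, -0.59 and -0.68 (mean -0.59, SE 0.094, adjusted p = 0.00376), lower on all arrays. HSPB11, now named IFT25 in RefSeq, was at -0.65 (adjusted p = 0.00364) and HSPB6 was the highest of the family at 0.03 (adjusted p = 0.847).

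**Figure D3:**
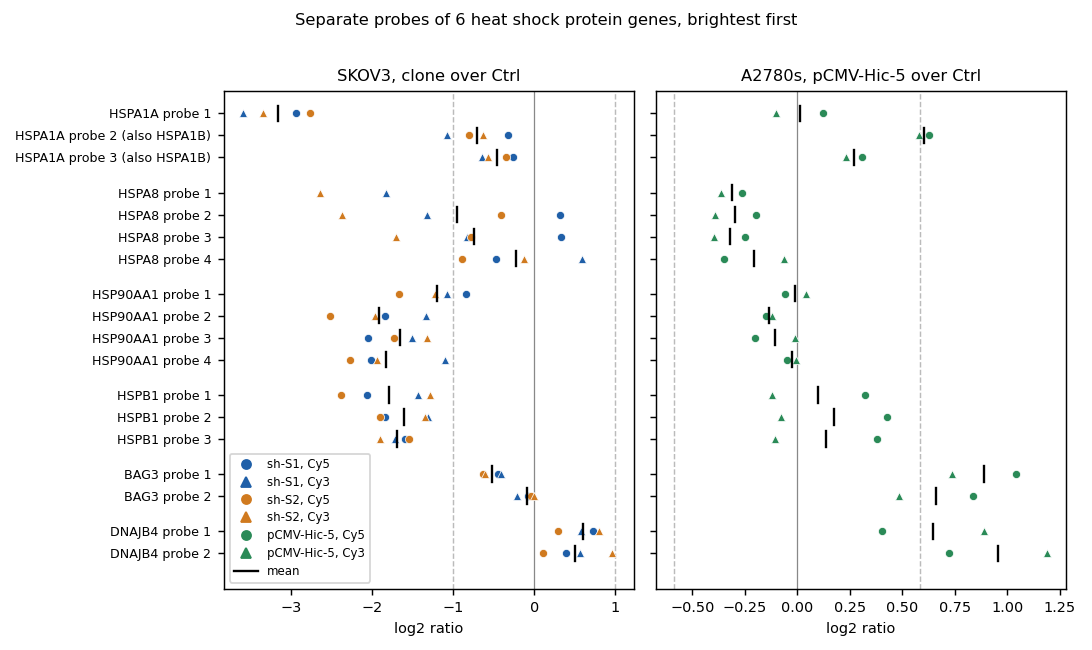
log2 ratios of the separate probes of HSPA1A, HSPA8, HSP90AA1, HSPB1, BAG3 and DNAJB4, brightest first, in SKOV3 (left) and A2780s (right), with points per array, black lines for the mean and dashed lines at the fold used for a call. The HSPA1A probe that lists HSPA1A alone has a mean of -3.16 in SKOV3 and 0.01 in A2780s, while the first probe shared with HSPA1B has -0.70 and 0.60.

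The mitochondrial chaperonin genes HSPD1 and HSPE1, which share a divergent promoter region, had means of 0.29 and 0.23 (adjusted p = 0.0596 and 0.127). In the cytosolic chaperonin TRiC, CCT3 was at 1.23 and 1.52 for sh-S1 and 0.62 and 0.65 for sh-S2 (mean 1.00, SD 0.52, SE 0.171, adjusted p = 0.00513). It was higher on all 4 arrays and lay at the fold threshold, with sh-S1 above it and sh-S2, at 0.64, below it. The call was also lost with median centring in place of loess (0.88) and when only the Cy5-labelled clones were used (0.93). TCP1, another subunit, was at -1.08, 0.07, -0.97 and -0.42 (mean -0.60, SE 0.099, adjusted p = 0.00453), and CCT2 and CCT5 were not tested. A common direction of the 4 TRiC genes was thus not seen.

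Neither heat shock factor was called. HSF1, which drives the response to heat, was at -0.01 and -0.91 for sh-S1 and -0.31 and -1.03 for sh-S2 (mean -0.57, SE 0.101, adjusted p = 0.00613). HSF2, which forms mixed trimers with HSF1, was at 0.31, 1.29, 0.30 and 1.33 (mean 0.81, SE 0.092, adjusted p = 0.000946). Both passed on p without reaching 2-fold, and both were larger with the clone in Cy3. A second HSF2 probe had a mean of 0.29 (adjusted p = 0.0576).

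In A2780s, 5 heat shock transcripts were higher in the pCMV-Hic-5 RNA. These were BAG3, DNAJB1, HSPA6, DNAJB4 and BAG2, with mean ratios between 0.62 and 0.89, or 1.54- to 1.85-fold, and none was lower. With 1 pair of RNAs there was no test, and a gene was counted where the mean ratio was at least 1.5-fold and its 2 arrays shared a sign. All 38 genes entered. The 5 genes were 13.2% of the 38, against 3.25% of all 30546 probes on the higher side, and on the lower side 0 of 38 stood against 1.32%. The median of the 38 was -0.03, against -0.01 for all probes. None of the 5 reached 2-fold. In SKOV3, DNAJB4 was also called higher when 1.5-fold was used in place of 2-fold.

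**Figure D4:**
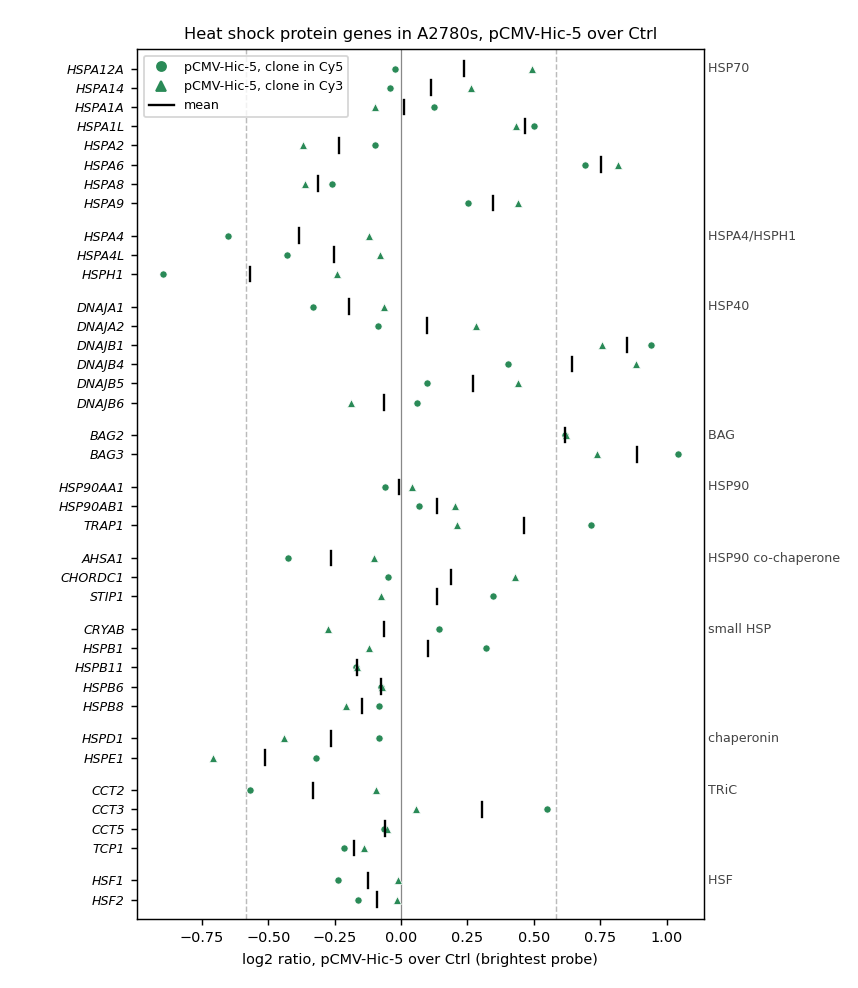
log2 ratio of pCMV-Hic-5 over Ctrl in A2780s (x axis) for the brightest probe of the 38 heat shock genes, grouped by family. Circles mark the clone labelled with Cy5 and triangles the clone labelled with Cy3, with black lines for the mean and dashed lines at 1.5-fold. BAG3, DNAJB1, HSPA6, DNAJB4 and BAG2 have means past the right dashed line.

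BAG3, which joins HSP70 to small heat shock proteins and to autophagy, was at 1.04 and 0.74 (mean 0.89), and its second probe had a mean of 0.66 and also passed. BAG2, an inhibitor of the ubiquitin ligase that works with HSP70, was at 0.62 on both arrays. Both passed the rule, whereas BAG1, BAG4, BAG5 and BAG6, which belong to the wider chaperone network, had means of -0.14, 0.11, 0.17 and 0.13 and did not. DNAJB1 was at 0.94 and 0.76 (mean 0.85) and DNAJB4 at 0.40 and 0.89 (mean 0.65), with 0.96 for the second DNAJB4 probe. DNAJB4 was the only one of the 5 that was below 1.5-fold on an array. The other 4 HSP40 genes ranged from -0.20 for DNAJA1 to 0.27 for DNAJB5.

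HSPA6 was at 0.69 and 0.82 (mean 0.75). Its log2 level was 7.09 and 7.24 in Ctrl and 7.91 and 7.93 in pCMV-Hic-5, close to the lowest levels well above background on these arrays (5.50 to 6.84), and its ratio fell to 0.45, below the rule, when the background was fitted on all spots. HSPA1A was at 0.12 and -0.10 (mean 0.01) on the probe that lists it alone. The first probe shared with HSPA1B was at 0.63 and 0.58 (mean 0.60, 1.52-fold) and the second at 0.31 and 0.23 (mean 0.27). HSPA1L, the third gene of that cluster, was at 0.50 and 0.43 (mean 0.47) and was well above background on 1 of the 2 arrays in Ctrl. The lowest HSP70 gene was HSPA8, at -0.26 and -0.36 (mean -0.31), and its other probes lay between -0.32 and -0.21.

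The other transcripts called in SKOV3 were not past the rule in A2780s. Of all probes, 3.25% were past it on the higher side and 1.32% on the lower, so most probes were likewise not past it. HSPB1 was at 0.32 and -0.12 (mean 0.10), HSP90AA1 at -0.06 and 0.04 (mean -0.01) with -0.13 to -0.03 on its other probes, and CCT3 at 0.55 and 0.06 (mean 0.30). Whether the ratios differed between the lines was not tested, since the lines lay on separate slides and differed in the modification. The lowest means belonged to genes of the HSP110 family and the mitochondrial chaperonin. HSPH1 was at -0.90 and -0.24 (mean -0.57) and HSPE1 at -0.32 and -0.71 (mean -0.51), both just short of 1.5-fold. All 3 HSP110 genes and both chaperonin genes had negative means on their brightest probes, while 48.5% of all probes had a positive mean. Another HSPA4 probe had a mean of 0.15. The HSP90 family and its co-chaperones ranged from -0.26 for AHSA1 to 0.46 for TRAP1, the small heat shock proteins from -0.17 to 0.10 and the TRiC genes from -0.33 to 0.30. HSF1 was at -0.24 and -0.01, and HSF2 at -0.16 and -0.02.

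The levels in the 2 Ctrl RNAs differed for some of these genes, given as a description because the lines were measured on separate slides. Over the 38 genes, 7 had a log2 level at least 1 higher in SKOV3 Ctrl than in A2780s Ctrl. Another 4 had one at least 1 lower, and the median difference was 0.11. The shares over all probes were not computed, so these counts are not a result about heat shock genes. Among the 7, HSPA8 and CCT5 had SKOV3 Ctrl values on 2 of 4 arrays. Those of CCT5 were 14.9 and 16.4, and its difference was 1.01. The largest difference was in HSPA1A, at 13.2 in SKOV3 Ctrl, 10.1 in sh-S1, 10.0 in sh-S2, 8.80 in A2780s Ctrl and 8.81 in pCMV-Hic-5. HSPB1 followed with 14.2, 12.5, 12.2, 11.0 and 11.1 in the same order. For both genes the SKOV3 Ctrl RNA was the highest of the 5 RNAs and the sh-S1 and sh-S2 RNAs lay between it and the A2780s RNAs. HSPA4L was the reverse, at 7.53 in SKOV3 Ctrl and 9.91 in A2780s Ctrl.

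**Figure D5:**
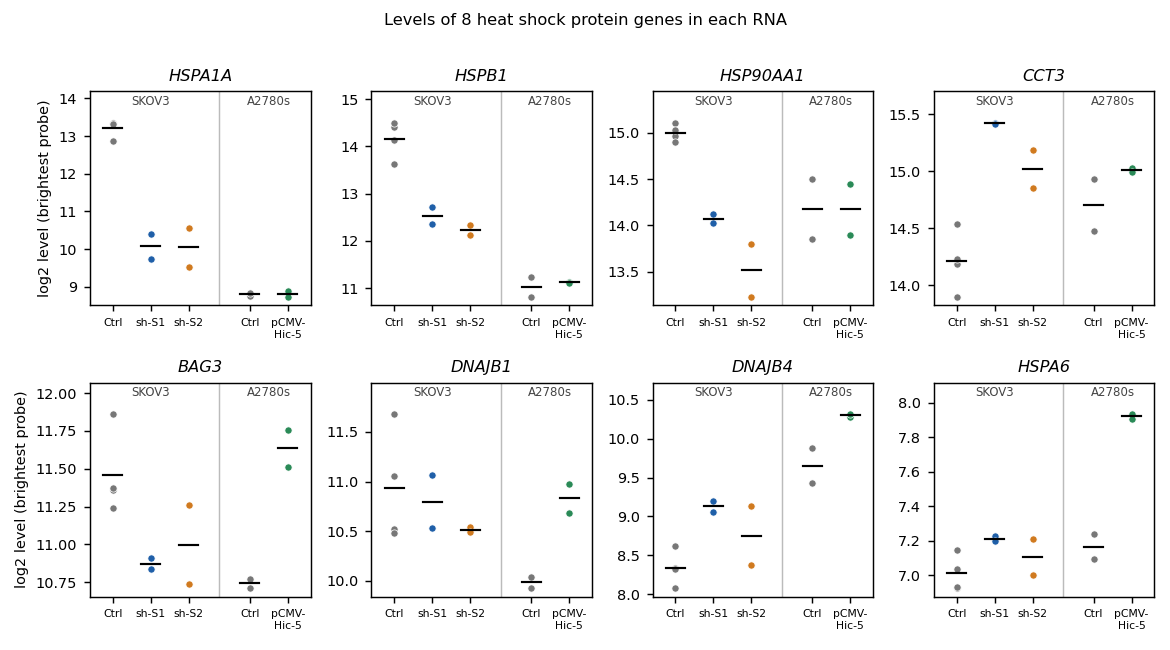
log2 level of the brightest probe of 8 heat shock genes in each RNA (y axis, a separate scale per gene), with a point per array and a black line for the mean. SKOV3 RNAs are left of the grey line and A2780s RNAs right of it, on another slide. HSPA1A in SKOV3 Ctrl lies at 12.9 to 13.3, above the other 4 RNAs.

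Other genes of the chaperone network, 61 on the list and all on the array, were counted in the same way. That list was also chosen with earlier results known. In SKOV3, 52 were tested, 1 rose (1.92%, against 2.97% of all probes) and 2 fell (3.85%, against 4.16%). FKBP5, an HSP90 co-chaperone of steroid receptors, rose (1.01, SE 0.098, adjusted p = 0.000458). SQSTM1, the autophagy receptor p62, fell (-1.22, SE 0.094, adjusted p = 0.000174), as did DNAJC5, the cysteine string protein (-1.04, SE 0.096, adjusted p = 0.000377). In A2780s, 58 entered, 7 were past the rule on the higher side (12.1%, against 3.25% of all probes) and none on the lower. Among them were SQSTM1 at 1.37 and 1.04, and GRPEL2, a mitochondrial nucleotide exchange factor, at 1.06 and 1.07. SQSTM1 was thus lower on all 4 SKOV3 arrays and higher on both A2780s arrays. By group, 4 of 11 heat shock factors and regulators, 2 of 11 HSP70 relatives and regulators and 1 of 13 HSP40 genes were past the rule in A2780s, and none of the HSP90 co-chaperones, small heat shock proteins or TRiC and prefoldin subunits.

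Chaperones of the endoplasmic reticulum and proteasome subunits were counted beside them, against the same shares of all probes (2.97% higher and 4.16% lower in SKOV3, 3.25% and 1.32% in A2780s). Of 10 chaperones of the endoplasmic reticulum, 6 were past the rule on the higher side in A2780s, led by DNAJB9 at 2.22 and 2.23, with a median of 0.66, and HSPA5, the reticulum HSP70, was at 1.15 and 1.41. In SKOV3, 2 of these 10 rose and none fell, with a median of 0.12. Of 10 proteasome genes, 8 were tested in SKOV3, where 1 rose and none fell, and none was past the rule in A2780s.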

How the data were processed

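The RNAs were hybridised on 6 two-colour Agilent arrays of the human genome. The authors deposited spot intensities of both dyes as written by Agilent Feature Extraction (version 8.5.1.1 per the labels, 10.7.3.1 per the file headers), not normalized, with log10 ratios of Cy5 over Cy3 from the software's processed intensities. The deposited series values were the same log10 ratios rounded (largest relative difference 0.50%), not turned for the dye. Centring and direction of the log10 ratios were those of the software, and column medians were 0 or 0.00139.

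Mean intensity and local background were read in R 4.3.3 (data.table package, version 1.17.8). In limma 3.58.1, normexp (offset 50) served for background, loess for ratios within arrays and Aquantile for channel levels. Control spots, outlier-flagged spots and spots with a local background over 1000 were left out, spots of a probe were averaged, and the sign of swapped arrays was turned. The condition in each channel came from the labels. Probes well above background in Ctrl on all arrays of a line, or in a clone on both its arrays, were kept. SKOV3 was tested with limma (lmFit, eBayes) on clone means against 0, with Benjamini-Hochberg adjustment over 24980 probes. A2780s was read by a fold rule. Precision is limited by the small number of arrays. The code was tested on simulated data, and figures were drawn with matplotlib 3.10.9 in Python 3.11.15.

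The members and gene lists were chosen with earlier results of these data known. Heat shock genes past a threshold are given on every array, as are HSF1, HSF2 and some others. The remaining heat shock genes are given by a mean or by the range of their family. Other chaperone genes called in SKOV3 are given by their mean. At most 3 other chaperone genes per direction, and 2 each of the endoplasmic reticulum and proteasome groups, are named, and a further chaperone network gene past the A2780s rule is not reported here. Older symbols were matched through RefSeq. SKOV3 and A2780s arrays lay on separate slides and scans, so slide and line cannot be told apart. Promoters came from RefSeq (GRCh38.p14) and probe positions from the files (hg19), and the builds were not mixed. Promoters of CRYAB, HSF1, HSPA14 and HSPB11 were not used here. Fold changes rest on intensities plus the offset, which understates changes of dim probes.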

Additional observations from a re-analysis of the deposited data

Results flagged for a closer look

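One result was outside the brightest probes used for the counts. In A2780s, the first probe that lists both HSPA1A and HSPA1B had ratios of 0.63 and 0.58 on the 2 arrays (mean 0.60) and was past the 1.5-fold rule, while the brightest probe, which lists HSPA1A alone, had 0.12 and -0.10 (mean 0.01). The second shared probe, at a mean of 0.27, was not past the rule.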

How the results depend on the processing

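In SKOV3, HSPA1A and HSPB1 were called lower under every alternative run, and HSP90AA1 under all but the one without sh-S2 (-0.96). Averaged over its 3 probes, HSPA1A was at -1.44 in place of -3.16. Of the heat shock genes, 1 was higher and 3 lower in the analysis as reported. With the scanner software's processed ratios 2 were higher and 4 lower (DNAJB4 and HSPA12A added), with median centring in place of loess 0 were higher and 5 lower (CCT3 lost, CHORDC1 and HSPA12A added), with the Cy5-labelled clones alone 0 and 5, with the Cy3-labelled clones alone 3 and 5, and with 1.5-fold in place of 2-fold 4 and 8. Leaving out 1 clone, which allows no test, gave 0 to 1 higher and 2 to 5 lower, with CCT3 lost without sh-S1. In A2780s, 5 genes were higher and 0 lower as reported, and BAG2, BAG3 and DNAJB1 passed under every alternative except 2-fold, which left 0 higher. Genes lower numbered 2 with the processed ratios, 1 with normexp fitted on all spots (where HSPA6, at 0.45, was lost), 2 with the Cy5-labelled clone alone and 1 with the Cy3-labelled clone alone. The cause was not tested. No reversal of a called gene was seen. Using the brightest tested probe where the brightest was not, chosen after seeing the data, changed no count.

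Over all probes, the SKOV3 counts of 743 higher and 1038 lower became 1965 and 2358 with the processed ratios and 1965 and 2245 at 1.5-fold, 1578 lower with median centring, and 1222 higher with the Cy3-labelled clones alone. The A2780s counts of 994 higher and 403 lower, of 30546 probes, became 1795 and 1516 with the Cy5-labelled clone alone. They were 668 and 293 with normexp fitted on all spots, 495 and 123 at 1.5-fold on each array, and 194 and 29 at 2-fold. The mean over probes of a gene gave 658 and 218, but of 22115 genes in place of 30546 probes. Lower counts were 693 with the processed ratios and 210 with the Cy3-labelled clone alone. The slide as a block was not run, because each slide holds 1 cell line. No paired analysis was possible because the replicate numbers mark the 2 dye orientations of the same RNAs, which were averaged, and each ratio already sets a clone against Ctrl on 1 array. Weak Cy5 signal on the SKOV3 arrays limits the dim genes HSPA1L, HSPA4L and HSPB8, which were not tested.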
